A study of Drosophila mojavensis with 97 samples.

Results

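Of 14528 transcripts of the cactus-breeding desert fly Drosophila mojavensis, 62 were repressed by heat only: their signal was much the same at 15 and 25 °C on average over populations and host cacti, and lower at 35 °C than at 25 °C in every population and on both cacti. They were chosen from the means of 24 groups of arrays, each group being 1 population on 1 cactus at 1 temperature. The mean over 8 combinations of population and cactus had to be lower at 35 °C than at 25 °C by at least 0.5 on the log2 scale (the heat step, 35 minus 25). The mean difference between 25 and 15 °C (the cold step, 25 minus 15) had to lie within 0.25 of 0, and that between Baja California and mainland populations within 0.585. The heat step also had to be below 0 in 8 of 8 combinations. A heat step of -0.5 or lower was found for 146 transcripts, of which 86 met the bound on the cold step, 81 of these the bound on region as well, and 62 the sign rule too. The heat step, the cold step, the regional difference and the 8 signs were therefore used to choose the transcripts and are given as a description, without a test.

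RNA came from whole 7-day-old adult females of wild-type stocks. Baja California was represented by Punta Prieta (PP) and by San Quintin (SQ), and the mainland by Organ Pipe National Monument (OPNM) in Arizona and by Punta Onah (PO) in Sonora. Eggs of every stock were raised to adults on 1 of 2 fermenting host cacti, agria or organ pipe. After emergence all flies were held on banana food, so that the cacti differ in the diet of the immature stages and not of the adults measured. Vials of 30 adults were then kept for 12 hr at 15, 25 or 35 °C. Expression was measured as Cy3 fluorescence on 97 single-colour oligonucleotide arrays, with 32 arrays at 15 °C, 32 at 25 °C and 33 at 35 °C. Each group had 4 arrays, except that of PP on agria at 35 °C, which had 5. Each population was represented by 1 mass-reared laboratory stock, each RNA sample pooled many females, and no label ties an array to a slide or to a separate culture, so the errors below measure the spread between arrays. In whole flies, fewer cells of a type and less RNA per cell cannot be told apart. Array medians lay between 9.81 and 10.10. On 6 arrays, 5 of them at 35 °C (PP on organ pipe, array 4; SQ on agria, arrays 3 and 4; SQ on organ pipe, arrays 1 and 4) and 1 at 25 °C (PP on organ pipe, array 2), the deviation from the group mean over all transcripts exceeded 2 times the median deviation. Without them the same rule chose 62 transcripts, 54 of which were among the 62 described here.

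When an insect is brought near its upper thermal range, its cells make heat-shock chaperones, while the transcripts of many other genes, among them those for digestion, cuticle and growth, can decline. D. mojavensis lives on rotting columnar cacti of the Sonoran Desert. Agria is the usual host in Baja California and organ pipe the usual host in most of mainland Sonora and Arizona. Little is known by name about the heat-repressed transcripts: 26 of the 62 had a gene name or a family term in the study's supplementary tables, 9 of them an ortholog named in Drosophila melanogaster, and 36 had neither and are given by transcript identifier.

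The median heat step over the 62 transcripts was -0.61, a 1.52-fold lower signal at 35 °C, against -0.02 over all transcripts. It ranged from -1.41 to -0.50, with 6 of the 62 lower by at least 2-fold and 38 by at least 1.5-fold. Over the same transcripts the cold step had a median of -0.02 and ranged from -0.24 to 0.22, with 27 of the 62 higher at 25 °C than at 15 °C. The median over the 62 transcripts on a single array lay between 9.97 and 11.17 at 15 °C (median 10.67, n = 32), between 9.83 and 10.99 at 25 °C (median 10.66, n = 32) and between 9.64 and 10.57 at 35 °C (median 9.99, n = 33). The arrays at 35 °C were thus low as a set but overlapped those at the other temperatures when populations and cacti were pooled. Within combinations, the arrays at 35 °C lay wholly below those at 25 °C in at least 6 of 8 for 28 of the 62 (0.441% of all transcripts) and in 3 or fewer for 12. The contrast is the one that chose the transcripts, and nothing is read from that share.

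**Figure D1:**
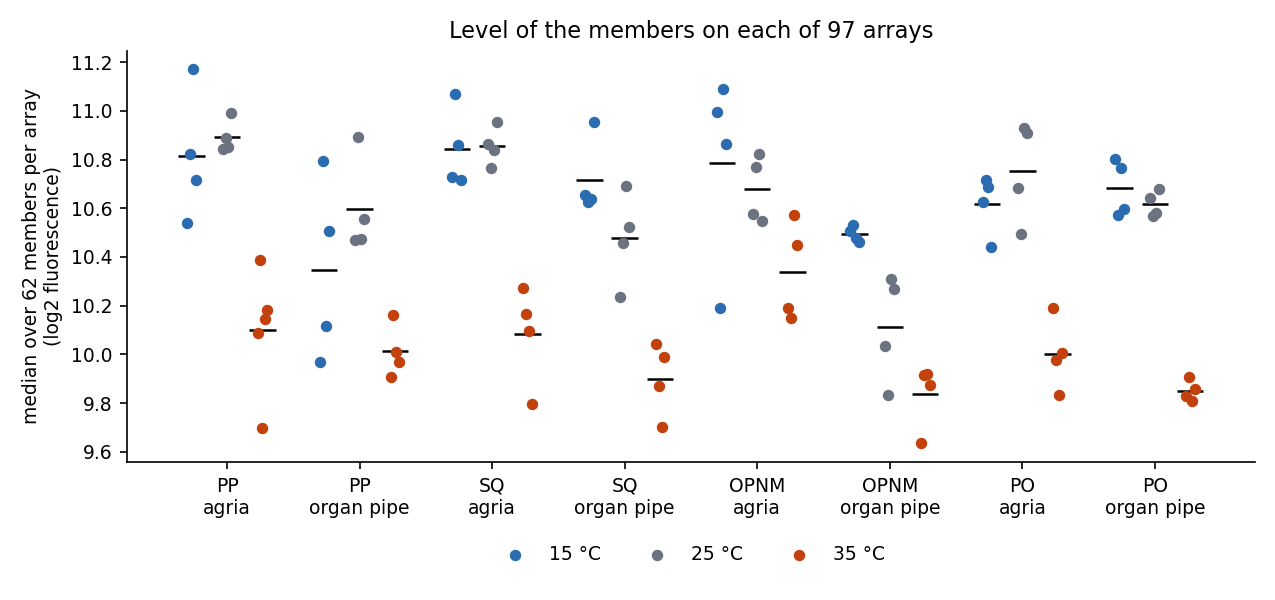
Median log2 fluorescence over the 62 heat-repressed transcripts on each of 97 arrays (points), by population, cactus and temperature, with the group mean as a bar. The mean at 35 °C is the lowest in each combination, and the gap to 25 °C is smallest in OPNM, where arrays of the 2 temperatures overlap on both cacti. On organ pipe that overlap rests on replicate 2 at 25 °C (9.83, with up to 9.92 at 35 °C).

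The transcript that was lowest at 35 °C relative to 25 °C, FBtr0166005, has no name or family term. Its signal was 9.58 to 11.65 at 15 °C (median 10.60), 8.68 to 11.13 at 25 °C (median 10.53) and 7.20 to 10.42 at 35 °C (median 8.99), a heat step of -1.41. The spread at 35 °C was wide, and 23 of 33 arrays there reached or exceeded the lowest array at 25 °C. Within combinations the separation was cleaner: every array at 35 °C lay below every array at 25 °C in 6 of 8.

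FBtr0161209 carried the terms iron ion binding, oxidoreductase and carboxylic acid biosynthesis. Its signal was 12.65 to 13.57 at 15 °C (median 13.30), 11.77 to 13.56 at 25 °C (median 13.25) and 11.02 to 12.68 at 35 °C (median 11.96), a heat step of -1.28. The 2 temperatures did not overlap in 7 of 8 combinations. FBtr0166603 encodes a serine-type endopeptidase, an enzyme class that in insects includes the digestive trypsins. It had values of 9.03 to 11.61 at 15 °C (median 10.43), 9.18 to 11.39 at 25 °C (median 10.21) and 6.89 to 10.18 at 35 °C (median 9.18), a heat step of -1.26.

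Another pair without annotation followed. FBtr0174009 was 9.96 to 12.85 at 15 °C (median 11.98), 10.43 to 13.01 at 25 °C (median 12.16) and 9.86 to 12.02 at 35 °C (median 10.97). FBtr0166272 was 10.99 to 12.55 at 15 °C (median 11.80), 10.84 to 12.50 at 25 °C (median 11.87) and 8.53 to 11.83 at 35 °C (median 10.70). Their heat steps were -1.11 and -1.10, and in both the arrays at 35 °C lay wholly below those at 25 °C in 7 of 8 combinations.

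GI21891 (FBtr0172616) carries lipase and phospholipase A1 terms, a family of enzymes that cleave fatty acids from lipids. Its signal was 10.01 to 12.50 at 15 °C (median 11.65), 8.61 to 12.67 at 25 °C (median 11.60) and 9.25 to 11.44 at 35 °C (median 10.59), a heat step of -1.08. Its 2 lowest arrays at 25 °C (8.61 and 8.89) were lower than any at 35 °C, so that all 33 arrays at 35 °C reached or exceeded the lowest at 25 °C. Both were of OPNM on organ pipe, replicates 1 and 2, against 10.73 and 11.18 in replicates 3 and 4. Replicate 2 of that group also gave the lowest values at 25 °C stated above for FBtr0166005, FBtr0161209, FBtr0174009 and FBtr0166272. FBtr0169307 had medians of 10.97, 10.71 and 9.77 at 15, 25 and 35 °C and a heat step of -0.92, and FBtr0174517 medians of 12.66, 12.71 and 11.78 and a heat step of -0.91. Both lack annotation, and FBtr0174517 was the more uniform, with 4 of 33 arrays at 35 °C at or above its lowest array at 25 °C.

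**Figure D2:**
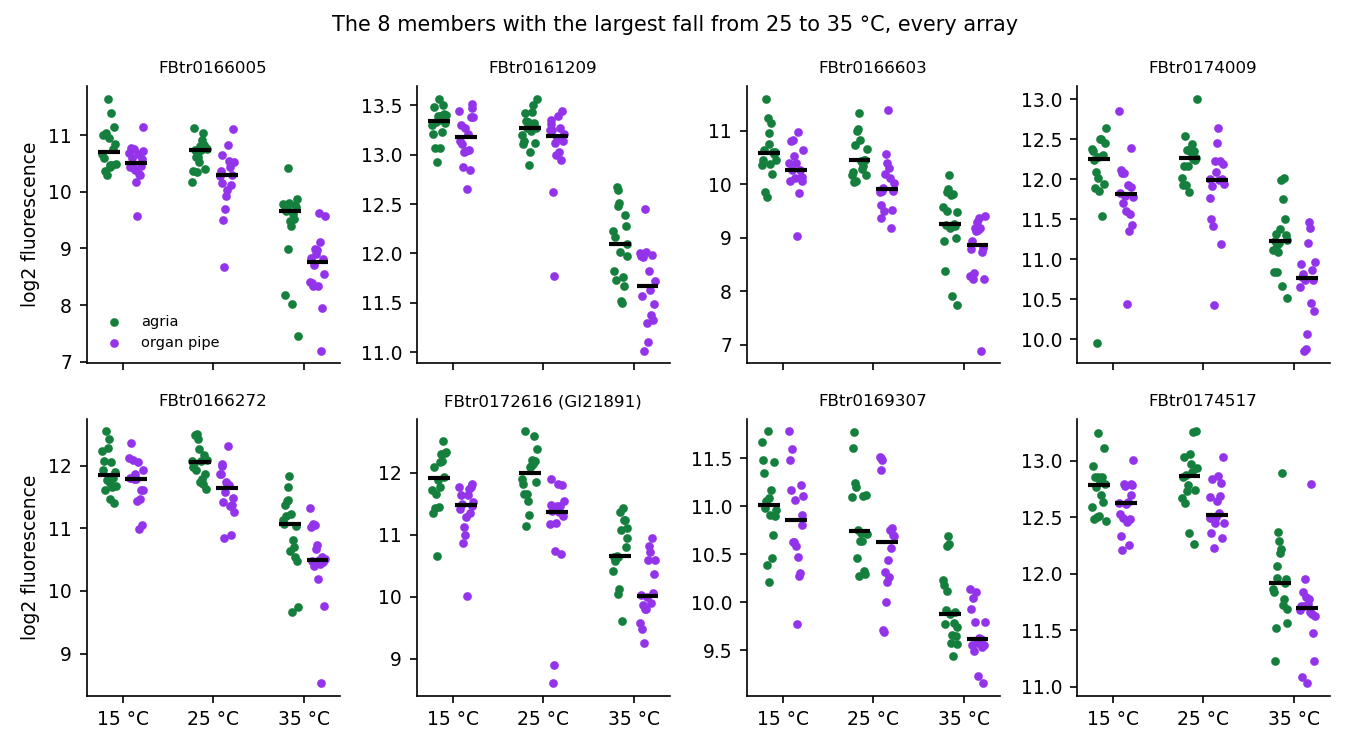
Log2 fluorescence of the 8 transcripts with the lowest heat steps on every array, by temperature and cactus, with the median of each cactus as a bar. The step lies between 25 and 35 °C in each panel, and the agria medians lie above the organ pipe medians at each temperature.

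The heat-repressed transcripts with a known product fell into several functional groups. Enzymes that cut proteins were FBtr0166603 above, FBtr0163584, a metallocarboxypeptidase, which trims amino acids from the end of a chain (heat step -0.86), and FBtr0167426, a serine-type endopeptidase (-0.70). FBtr0163584 had medians of 10.12, 10.14 and 9.20 at 15, 25 and 35 °C, and FBtr0167426 of 13.28, 13.03 and 12.31. The series as a whole did not show one direction for these families: of 69 transcripts with the serine-type endopeptidase term, 13 were lower and 8 higher at 35 °C (adjusted p under 0.01), and of 13 metallocarboxypeptidases 1 was lower and 3 were higher. Among all transcripts 9.03% were lower and 7.32% higher at 35 °C. These family terms, and those in the next paragraphs that are called families, were picked after the values were known.

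Cuticle and chitin formed another group. Cpr65Au (FBtr0163424) and Cpr49Ac (FBtr0169781) are structural proteins of the chitin-based cuticle, and FBtr0175025 binds chitin. Cpr65Au had medians of 10.51, 10.59 and 9.92 at 15, 25 and 35 °C (heat step -0.57), Cpr49Ac of 9.34, 9.38 and 8.79 (-0.57), and FBtr0175025 of 10.43, 10.21 and 9.68 (-0.58). In the list of cuticle proteins, 4 transcripts were matched, 2 lower and 1 higher at 35 °C. The higher 1 was Cpr, which in D. melanogaster names cytochrome P450 reductase and not a cuticle protein. Among 14 transcripts of the chitin binding family, 2 were lower and 4 were higher.

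Several heat-repressed transcripts encode proteins that are secreted or bind small ligands. FBtr0166979 has the juvenile hormone binding protein domain found in insect carriers of hydrophobic ligands, with medians of 10.49, 10.50 and 9.97 (heat step -0.60). FBtr0163716 has lysozyme activity, which breaks bacterial walls, with medians of 9.96, 10.10 and 9.48 (-0.58). FBtr0173913, annotated only as extracellular, had medians of 9.66, 9.72 and 8.64 (-0.82). Of 8 transcripts with the juvenile hormone binding domain in the whole series, 7 were lower and 0 higher at 35 °C, and FBtr0166979 was the only 1 of them that met the rule. Of 7 lysozymes, 1 was lower, and it was FBtr0163716. Among 47 transcripts of the extracellular region family, 11 were lower and 8 higher, with a median of -0.04.

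Oxidative enzymes and a transcript with an oxidative phosphorylation term formed a further group. FBtr0170947, a cytochrome P450 (oxidases that process steroids and toxins), had medians of 9.99, 9.77 and 9.17 at 15, 25 and 35 °C (heat step -0.62). In the list of P450s, 14 of 28 were lower and 3 higher at 35 °C, with a median of -0.24. The lowest was phm, the phantom hydroxylase of ecdysone synthesis, at -1.18 ± 0.11 (SE), which is not among the 62. FBtr0167265, an oxidoreductase, had medians of 8.40, 8.17 and 7.68 (-0.66). FBtr0166617 is placed here for its oxidative phosphorylation term, which names a pathway and not an enzyme activity. It was named after its value was seen and had a heat step of -0.56. Among 26 transcripts of that family, 6 were lower and 1 was higher. Outside this group, FBtr0174268, with a CHK kinase-like domain, had medians of 10.76, 10.83 and 10.20 (-0.61). Of 10 transcripts of the CHK kinase-like family, 7 were lower and 0 higher.

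Among transcripts of other functions, Sirt2 (FBtr0172954), an NAD-dependent protein deacetylase, had medians of 9.47, 9.57 and 8.88 at 15, 25 and 35 °C and a heat step of -0.73. It was the only heat-repressed transcript whose arrays at 35 °C lay wholly below those at 25 °C in 8 of 8 combinations (0.0206% of all transcripts). Rcd2 (FBtr0162628), a gene with a role in centriole replication in D. melanogaster, had medians of 10.79, 11.01 and 10.35 (heat step -0.68). CG3860 (FBtr0171417), an oxysterol-binding protein, had medians of 9.74, 9.47 and 8.90 (-0.64), and CG15423 (FBtr0167749), of unknown function, 10.69, 10.71 and 10.21 (-0.60). FBtr0167966, annotated to the lysosome, had narrow ranges, with 11.70 to 12.17 at 15 °C (median 11.99), 11.70 to 12.53 at 25 °C (median 12.03) and 10.84 to 11.77 at 35 °C (median 11.52). Its heat step was -0.58, and 2 of 33 arrays at 35 °C reached the lowest at 25 °C. FBtr0170483, with a carbohydrate binding term, had a heat step of -0.57. Named here after their values were seen, Gad1 (FBtr0162142), the glutamate decarboxylase that makes the transmitter GABA, had a heat step of -0.50, and CG7695 (FBtr0175509), with a Kazal protease-inhibitor domain, -0.55.

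Other gene lists are given here by their calls at 35 °C, where 9.03% of all transcripts were lower and 7.32% higher. Among 21 transcripts of the carbohydrate binding family, to which FBtr0170483 belongs, 5 were lower and 6 higher. Of 14 serpins and Kunitz inhibitors, which block proteases, 10 were lower and 0 higher, with a median of -0.30, and none met the rule. FBtr0174612 (-0.70 ± 0.069, SE), FBtr0168479 (-0.63 ± 0.089) and FBtr0174602 (-0.61 ± 0.089) were the lowest. Among 39 transcripts of the wider endopeptidase inhibitor family, 17 were lower and 3 higher. In that family FBtr0163045 (-0.52), named here after its value was seen, was the only 1 that met the rule. The 4 serine proteases listed by name gave 3 lower, among them epsilonTry (-1.02) and Jon25Bi (-0.37), and 1 higher, iotaTry (0.32). None of the 4 met the rule. Of 4 lipases GI21891 was the only 1 called. Among proteins that serve translation, 3 of 15 aminoacyl-tRNA synthetases, 3 of 5 ribosome biogenesis proteins, 1 of 2 cytosolic and 1 of 1 mitochondrial ribosomal proteins were lower, and 0 were higher. The heat shock list matched 3 constitutive cognates only (Hsc70-1, Hsc70-3 and Hsc70-4), of which Hsc70-1 was lower (-0.35) and 0 were higher; the inducible heat shock genes were not matched by name and are not analysed here. The 1 glycolytic enzyme was not called. These lists cover few genes, since most transcripts have no name in the tables used.

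All 62 transcripts were lower at 35 °C in a fit over all transcripts (limma, Benjamini-Hochberg adjusted p under 0.01), a threshold passed by 16.3% of all transcripts, 7.32% being higher and 9.03% lower. Between 15 and 25 °C, 1 of the 62 (FBtr0161296) passed, lower at 25 °C, against 6.68% of all transcripts (1.96% higher, 4.72% lower). Between Baja California and the mainland 22 passed within the bound on region, 17 higher and 5 lower in Baja California, against 12.5% of all (6.38% higher, 6.07% lower). The rule used these contrasts, so nothing is read from the counts. At the edges of the rule, FBtr0172377, FBtr0166847 and Gad1 lay just inside with heat steps of -0.511, -0.506 and -0.503, and FBtr0163796, FBtr0173951 and FBtr0167477 just outside with -0.497, -0.496 and -0.490. For the cold step, FBtr0166005 (-0.209), FBtr0165875 (0.222) and FBtr0161296 (-0.239) lay just inside, and FBtr0175450 (0.256), FBtr0170953 (0.260) and FBtr0167188 (-0.265) just outside. For region, FBtr0165875 (-0.488), GI21891 (0.549) and FBtr0174268 (-0.562) lay just inside, and FBtr0171070 (0.717), FBtr0165557 (0.805) and FBtr0166472 (1.01) just outside. For the highest of the 8 heat steps, FBtr0174652 (-0.033), FBtr0171950 (-0.025) and FBtr0166704 (-0.018) lay just inside, and FBtr0169097 (0.0011), FBtr0163520 (0.011) and FBtr0174667 (0.013) just outside.

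To look at the heat step in arrays that had no part in the choice, the rule was applied without the arrays of 1 replicate number and the step was then read in those arrays alone. Without replicate 1, 60 transcripts were chosen, and in replicate 1 their heat step had a median of -0.54 and was below 0 in 60 of 60, against 62.3% of all transcripts. Without replicate 2, 68 were chosen, with a median of -0.62 in replicate 2 over 7 combinations and a negative step in 68 of 68, against 56.9%. Without replicate 3, 58 were chosen, with -0.71 in replicate 3 and 58 of 58 negative, against 51.4%. Without replicate 4, 54 were chosen, with -0.71 in replicate 4 and 54 of 54 negative, against 47.3%. In the arrays left out the mean step was -0.5 or lower for 36 of 60, 56 of 68, 56 of 58 and 47 of 54 transcripts, against 0.723%, 1.49%, 1.78% and 2.06% of all. It was negative in every combination of those arrays for 28, 52, 47 and 23 of them, against 1.44%, 4.22%, 2.90% and 1.31% of all.

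The median heat step varied more among populations than between cacti, with the values nearest to 0 in OPNM. Median heat steps over the 62 transcripts were -0.81 on agria and -0.66 on organ pipe in PP, -0.79 and -0.69 in SQ, -0.76 and -0.75 in PO, and -0.37 and -0.40 in OPNM. The smallest fall of the 4 populations was in OPNM for 52 of the 62 transcripts. The heat step in OPNM minus that in PO was above 0 for 59 of the 62, with a median of 0.36. It was above 0 for 40.8% of all transcripts (median -0.05) and for 70.0% of the 1312 lower at 35 °C (median 0.14). The smaller fall in OPNM was thus not limited to the 62. Over those 1312 transcripts, the smallest fall was in OPNM for 59.1%. Their median heat step was -0.14 in OPNM against -0.29, -0.32 and -0.28 in PP, SQ and PO.

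**Figure D3:**
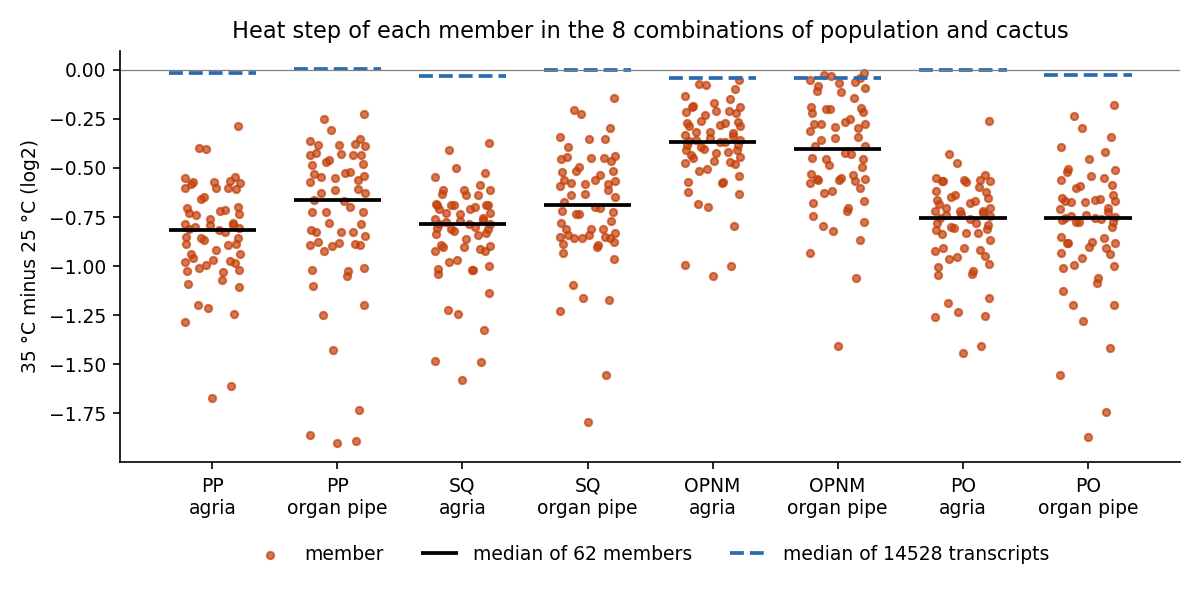
Heat step (35 minus 25 °C, log2) of each of the 62 transcripts (points) in the 8 combinations of population and cactus, with their median (black bar) and the median of all 14528 transcripts (dashed bar). All points lie below 0 by the choice of the transcripts, and the 2 OPNM medians, -0.37 and -0.40, lie nearest to 0.

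Whether the heat step of a single transcript differed between populations was tested in the same fit. The rule had required a heat step below 0 in 8 of 8 combinations, which limited how far the steps could differ. The counts among the 62 are therefore not independent of the choice. For the difference between populations within regions, 1 of the 62 passed the threshold, FBtr0169307 (F = 21.2, limma adjusted p = 0.00062), and 0.0344% of all transcripts did. At an unadjusted p under 0.05 there were 24 of the 62 (38.7%), against 16.9% of all. For any difference among the 8 combinations, again only FBtr0169307 passed (F = 6.57, adjusted p = 0.0077), against 0.0551% of all transcripts. The first call was lost without replicates 2, 3 or 4 (adjusted p = 0.020, 0.062 and 0.11) and the second without any 1 of these (0.29, 0.68 and 0.56), and the second also under other scalings.

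FBtr0169307, which has no annotation, had a small heat step in OPNM and a large one elsewhere. In PO its signal was 11.10 to 11.77 at 25 °C (median 11.50, n = 8) and 9.56 to 10.24 at 35 °C (median 9.99, n = 8), with no overlap. In OPNM it was 9.69 to 11.21 at 25 °C (median 10.30, n = 8) and 9.50 to 10.69 at 35 °C (median 10.11, n = 8), and the ranges overlapped over most of their length. The lowest OPNM values at 25 °C, 9.69 and 9.71, were from replicates 2 and 1 on organ pipe. In PP the values were 10.22 to 11.11 at 25 °C (median 10.64, n = 8) and 9.23 to 9.88 at 35 °C (median 9.62, n = 9), and in SQ 10.30 to 11.11 (median 10.70, n = 8) and 9.16 to 9.90 (median 9.61, n = 8), both without overlap. Mean heat steps were -1.48 in PO, -0.9997 in PP, -1.03 in SQ and -0.18 in OPNM. The OPNM value at 15 °C (median 10.84) was also above that at 25 °C, whereas the PO medians at 15 and 25 °C were 11.48 and 11.50.

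**Figure D4:**
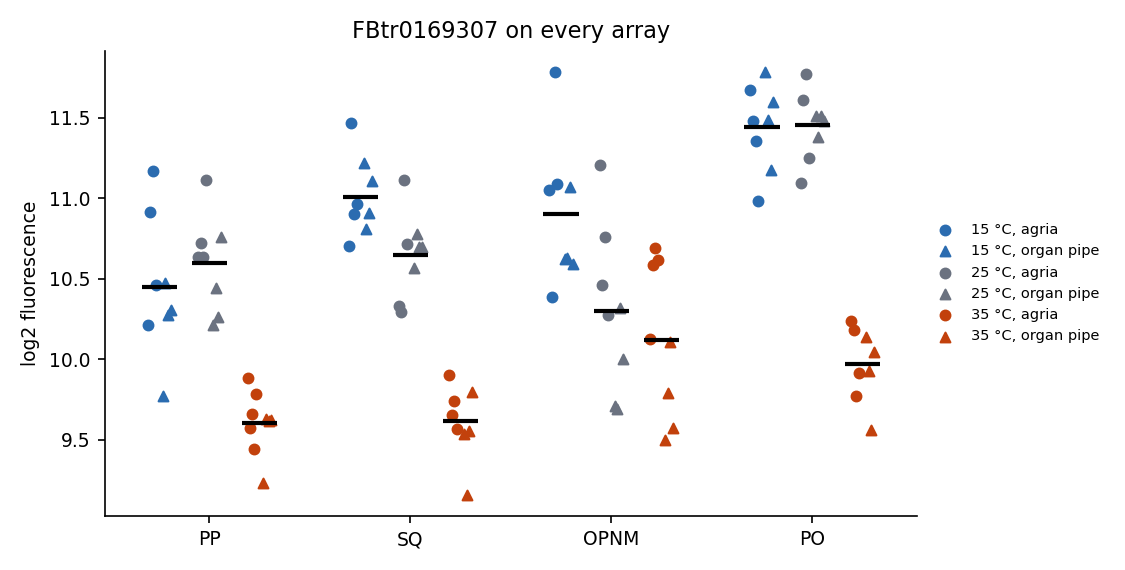
Log2 fluorescence of FBtr0169307 on every array by population and temperature, with agria as circles, organ pipe as triangles and the mean over both cacti as a bar. At 35 °C the values of PP, SQ and PO lie below those at 25 °C without overlap, while in OPNM they overlap.

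The other end of that scale was CG9427 (FBtr0173792), which had no family term, with the lowest F among the 8 combinations (0.404, limma adjusted p = 0.97). Its heat steps were -0.58 in PP, -0.52 in SQ, -0.49 in OPNM and -0.56 in PO.

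No heat-repressed transcript had a heat step that differed between the regions (limma adjusted p under 0.01: 0 of 62, background 0.00%), also without variance moderation. Here too, and for the cacti below, the sign rule had limited how far the heat steps of the 62 could differ. The difference, Baja California minus mainland, had a median of -0.18 over the 62, against 0.01 over all transcripts and -0.09 over the transcripts lower at 35 °C. It was below 0 for all but 8 of the 62, whereas it was above 0 for 52.4% of all transcripts. An unadjusted p under 0.05 was found for 11 of the 62 (17.7%, against 5.55% of all). The smallest p belonged to FBtr0161209, whose heat step was lower in Baja California by -0.46 ± 0.13 (SE; adjusted p = 0.20). Within the mainland the median heat steps of the 62 lay apart, at -0.38 in OPNM and -0.75 in PO, against -0.72 in PP and -0.75 in SQ. The heat step did not pass the threshold for a difference between the cacti in any transcript either (0 of 62, background 0.00%, and 0 without moderation). Its median difference, agria minus organ pipe, was -0.06, and 3 of the 62 had an unadjusted p under 0.05 (4.84%, against 3.22%). In simulated data of this design, 88 of 200 regional differences of 0.5 in heat step were recovered and 190 of 200 of size 1, so a regional difference below 0.5 was mostly not detectable with this number of arrays.

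The flat response between 15 and 25 °C, which the rule required of the mean, did not hold in each combination. Median cold steps over the 62 transcripts were 0.13 on agria and 0.23 on organ pipe in PP, 0.00 and -0.26 in SQ, -0.05 and -0.34 in OPNM, and 0.12 and -0.04 in PO. Over all transcripts they lay between -0.004 (SQ on agria) and 0.07 (OPNM on organ pipe). In OPNM on organ pipe at 25 °C, the array median over the 62 was 10.04 and 9.83 in replicates 1 and 2. It was 10.31 and 10.27 in replicates 3 and 4, and 10.46 to 10.53 at 15 °C. On organ pipe, 2 of the 62 transcripts were higher at 25 than at 15 °C in SQ and 7 in OPNM, against 50 in PP. A test of the cold step among the 8 combinations called 0 of 62 (background 0.00%), with 17 at an unadjusted p under 0.05 (27.4%, against 5.58% of all). The smallest adjusted p was 0.23, for FBtr0164738, whose cold step was -0.89 in OPNM and -0.51 in SQ on organ pipe and 0.05 in PP on agria. From 15 to 35 °C the median difference ranged from -0.44 in OPNM on agria to -0.94 in SQ on organ pipe. Over that wider span the medians of OPNM and PO on organ pipe were both -0.76.

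The host cactus had no part in the choice, and here the heat-repressed transcripts leaned one way. Between flies reared on agria and on organ pipe, 48 of the 62 differed (limma adjusted p under 0.01), and all 48 were higher on agria. Among all transcripts 26.5% differed, 18.3% being higher and 8.23% lower on agria. The median difference over the 62, agria minus organ pipe, was 0.26, against -0.03 over all transcripts. The difference was above 0 for 61 of the 62, against 42.7% of all transcripts. The differences called ranged from 0.15 to 0.67 and 1 exceeded 1.5-fold. In all 12 combinations of population and temperature the agria mean was the higher for 15 of the 62 transcripts, against 3.08% of all, and in at least 11 for 30 of the 62, against 10.5%.

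Transcripts that heat induced leaned towards agria as well. Of 94 transcripts chosen by the mirror rule (heat step of at least 0.5, positive in 8 of 8 combinations, the same bounds on the cold step and region), 62 were higher on agria and 3 on organ pipe, and their median difference was 0.22. Of the 84 other transcripts with a heat step of -0.5 or lower, 54 were higher on agria and 1 on organ pipe. Over the 1312 transcripts lower at 35 °C, 40.6% were higher on agria, and over the 1063 higher at 35 °C, 33.7%. Higher signal on agria was thus frequent among transcripts with strong heat steps in either direction.

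GI21891, the lipase, had the greatest host difference of the 62, 0.67 ± 0.090 (SE; limma adjusted p = 1.72e-07). Its signal was 9.60 to 12.67 on agria (median 11.65, n = 49) and 8.61 to 11.89 on organ pipe (median 11.15, n = 48), and the agria mean was the higher in 12 of 12 combinations. The difference was 0.49 at 15 °C, 0.91 at 25 °C and 0.62 at 35 °C. The value at 25 °C includes the low organ pipe arrays of OPNM, at 8.61 and 8.89, with 10.73 and 11.18 in the same group. The smallest adjusted p, 1.69e-07, belonged to FBtr0173871, a carbohydrate-binding protein, with 7.74 to 9.23 on agria (median 8.51) and 7.41 to 8.84 on organ pipe (median 8.15), a difference of 0.35 ± 0.047 (SE). In both transcripts the arrays of the 2 cacti overlapped widely when temperatures and populations were pooled.

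The transcripts with the lowest heat steps were among those higher on agria: FBtr0166005 by 0.49 ± 0.10 (SE; limma adjusted p = 0.00012), FBtr0161209 by 0.25 ± 0.053 (9.69e-05) and FBtr0166603 by 0.45 ± 0.10 (0.00046). Each of these calls was lost once: without replicate 1 for FBtr0166005 and FBtr0166603 (adjusted p = 0.024 and 0.028) and without the arrays at 35 °C for FBtr0161209 (0.020). So were CG15423 (0.49), Cpr65Au (0.39), FBtr0166979 (0.35), Gad1 (0.31), Sirt2 (0.27), Rcd2 (0.27) and CG3860 (0.26; adjusted p = 0.0102 without replicate 3). Of the 14 transcripts that did not pass, Cpr49Ac had a difference of 0.03 ± 0.057 (adjusted p = 0.71) and FBtr0167966 of 0.02 ± 0.038 (0.62). The oxidoreductase FBtr0167265, at -0.02 ± 0.064 (0.79), was the only 1 of the 62 below 0.

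**Figure D5:**
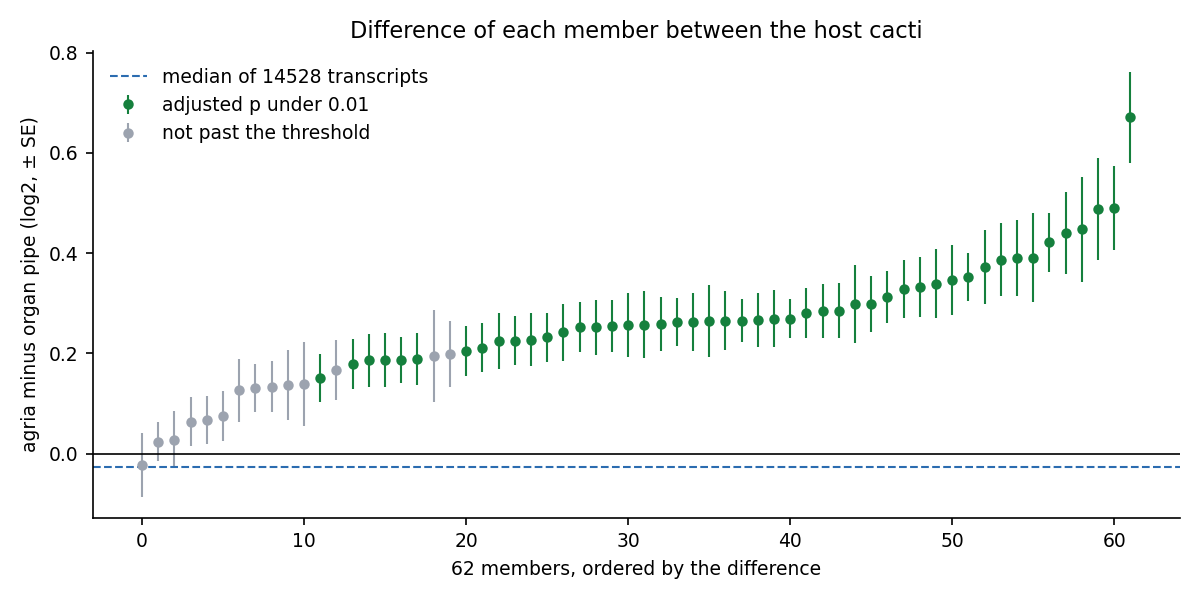
Difference between agria and organ pipe (log2, mean over 12 combinations of population and temperature, ± SE) of each of the 62 transcripts in order of size, with the median of all 14528 transcripts as a dashed line. The 48 transcripts past the threshold all lie above 0, and 1 of the 62 lies below it.

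The host difference was present at each temperature and varied among populations. Its median over the 62 was 0.17 at 15 °C, 0.31 at 25 °C and 0.28 at 35 °C, and 59, 61 and 60 of the 62 were higher on agria. By population the median was 0.33 in PP, 0.19 in SQ, 0.39 in OPNM and 0.09 in PO, with 62, 60, 60 and 47 of the 62 higher on agria. The variation of the host difference among populations was not tested.

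In the marker lists for the tissues of a female fly, transcripts also moved with temperature and cactus. At 35 °C, 2 of 3 ovary markers were lower, Vm26Ab (-0.60) and Vm26Aa (-0.58), both proteins of the vitelline membrane. The third, Cp190, was matched by its name but is a chromatin protein. The list mean was 12.71 to 13.33 at 25 °C and 11.85 to 13.29 at 35 °C. The single fat body marker, Lsd-1, was lower by -0.33 (11.42 to 13.30 at 25 °C, 11.78 to 13.05 at 35 °C), and of 7 gut markers 3 were lower, most of all epsilonTry (-1.02), and 1 was higher (list mean 10.47 to 12.10 and 10.65 to 11.80). Of 4 flight muscle markers 1 was lower, and of 5 markers of head and nerve 2 were lower and 1 was higher. Between the cacti, 6 of 7 gut, 3 of 4 flight muscle, 3 of 5 head and nerve, 1 of 1 fat body and 2 of 2 haemocyte markers were higher on agria. Among all transcripts 18.3% were higher and 8.23% lower on agria. Of the ovary list none passed, with differences of 0.27 for both Vm26Aa (limma adjusted p = 0.067) and Vm26Ab (0.011) and -0.08 for Cp190. The part of these tissues in the results above was not tested.

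Levels were also compared between the populations of a region, which the rule did not use. Between PP and SQ 0 of the 62 passed the threshold (limma; background 0.482%; 0 also without moderation, but 1 with a replicate block, with adjustment over all comparisons, without the fifth PP array or without the arrays that stood apart), with 19 at an unadjusted p under 0.05 (30.6%, against 19.8% of all). Between OPNM and PO 9 of the 62 passed (background 3.95%), 7 lower and 2 higher in OPNM (backgrounds 2.63% and 1.32%). The greatest difference was in the metallocarboxypeptidase FBtr0163584, with 8.84 to 10.30 in OPNM (median 9.58, n = 24) and 9.12 to 10.89 in PO (median 10.32, n = 24), a difference of -0.66 ± 0.093 (SE; limma adjusted p = 1.39e-07). It was lower in OPNM in all 6 combinations of cactus and temperature. The second smallest adjusted p, 2.96e-07, belonged to FBtr0174652 (-0.49 ± 0.071), with 10.69 to 12.40 in OPNM (median 11.69) and 11.34 to 12.73 in PO (median 12.21).

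The others lower in OPNM were GI21891 (-0.53), FBtr0169307 (-0.51), Cpr49Ac (-0.49), FBtr0164320 (-0.37) and FBtr0166704 (-0.37). Those higher in OPNM were FBtr0169017 (0.30) and FBtr0170640 (0.26), both without annotation. Among the 9, FBtr0163584, FBtr0174652, FBtr0169307, Cpr49Ac and FBtr0166704 passed under each alternative of the processing, while 4 calls were lost under some. That of GI21891 was lost without replicate 1 or 2 (adjusted p = 0.042 and 0.10) and that of FBtr0169017 without replicate 1, 2 or 3 (0.030, 0.014 and 0.11). FBtr0164320 lost its call under 7 of 13 alternatives (adjusted p up to 0.13) and FBtr0170640 under 7 of 14 (up to 0.089). A difference past the threshold in one pair of populations and not in the other does not show that the pairs differ, and that was not tested.

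Finally, the 62 transcripts varied together among arrays of the same group. After each group mean was subtracted, the correlation between 2 of them across the 97 arrays had a median of 0.34 over 1891 pairs, against -0.02 over pairs of all transcripts, and 453 of the pairs reached 0.5, against 12.9% of all pairs. The pairs share arrays, and the values are a description. The highest correlation, 0.89, was between the endopeptidase FBtr0166603 and CG15423. FBtr0170392 (no annotation) and FBtr0174009 had the highest median correlation with the other 61, 0.49 each, and Cpr49Ac the lowest, 0.05.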

How the data were processed

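Per the study's methods and labels, total RNA of whole females was reverse transcribed, labelled with Cy3 and hybridised to custom NimbleGen arrays with 9 probes for a transcript. The deposited log2 values are the authors' expression values after quantile normalization and Robust Multichip Average summarization; background handling beyond that and slide positions are not given in the sources used here. Quantile normalization forces arrays towards 1 distribution, so a change shared by most transcripts would not show. No value was filtered out, and 0 columns of the table were left aside. The authors' own comparisons were not used.

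A mean was fitted for each of 24 groups (limma 3.58.1, R 4.3.3; 73 residual degrees of freedom), contrasts were averaged over groups with equal weight, and p-values were adjusted by Benjamini-Hochberg over all 14528 transcripts within a comparison, with a threshold of 0.01. Precision is limited by how many arrays were run, with standard errors over the 62 transcripts of 0.068 (heat step) and 0.055 (cactus difference) at the median. The fit was tested on simulated data with 200 changed transcripts; of cactus differences of 0.5, 198 of 200 were recovered. Alternatives were other scalings, a filter on dim transcripts, ordinary contrasts, a replicate block, a covariate, pooled adjustment and left-out arrays. The members and gene lists were chosen with earlier results of these data known. Transcripts were named by rule: the 8 lowest heat steps, up to 20 annotated members, extremes of the tests, those nearest the bounds, and up to 3 per list. Names and terms came from the study's supplementary tables, which pair 4161 transcripts with a gene, and the lists for translation factors, fatty acid desaturases, takeout-like proteins, histones and male tissue matched 0. No sequence is shown, since the tables used here hold none that could be matched. The group OPNM on organ pipe at 35 °C holds 2 arrays labelled replicate 3 and none labelled 2; their values correlate at 0.992 and differ by a median of 0.14, and they were kept as separate samples.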

Additional observations from a re-analysis of the deposited data

Results flagged for a closer look

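In groups of 4 to 9 arrays, a lone array was looked for by its gap to the nearest other array relative to the range of the group. This was done for the median over the 62 transcripts, for the 3 transcripts with the lowest heat steps and for FBtr0169307 by population and temperature, 108 groups in all, and chance marks about 1 in 20. For the median over the 62 transcripts, replicate 1 of OPNM on organ pipe at 35 °C was low at 9.64 (others 9.87 to 9.92), and replicate 4 of SQ on organ pipe at 15 °C was high at 10.95 (others 10.62 to 10.65).

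FBtr0166005 had a lone array in 6 groups: 8.17 in PO on agria at 35 °C (others 9.66 to 9.78), 8.83 in PO on organ pipe at 35 °C (others 8.34 to 8.41), 11.39 in PP on agria at 15 °C (others 10.44 to 10.48), 8.01 in PP on agria at 35 °C (others 9.40 to 9.60), 10.40 in SQ on agria at 25 °C (others 10.76 to 10.82) and 7.45 in SQ on agria at 35 °C (others 9.74 to 9.87). The last of these, replicate 4, is among the 6 arrays that stood apart over all transcripts. On agria at 35 °C the lone arrays of PO, PP and SQ were each over 1 log2 unit below the rest of their group. FBtr0161209 had 12.90 in OPNM on agria at 25 °C (others 13.27 to 13.34) and 11.57 in PO on organ pipe at 35 °C (others 11.96 to 12.00). FBtr0166603 had 6.89 in PP on organ pipe at 35 °C (others 9.14 to 9.38), again on an array that stood apart, and 10.64 in SQ on organ pipe at 15 °C (others 10.07 to 10.15).

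The heat step of FBtr0169307 differed between populations within regions (limma adjusted p = 0.00062) and among the 8 combinations (adjusted p = 0.0077), with -0.18 in OPNM and -1.48 in PO.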

How the results depend on the processing

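Of the counts recomputed under the alternatives, 123 stayed within 1.5 times of the value reported and 21 did not. The 48 transcripts differing between the cacti became 33 to 47 without a replicate number, 38 without the arrays at 35 °C and 53 without the arrays that stood apart (both chosen after seeing the data), all higher on agria. Between OPNM and PO the 9 became 5 to 9 without a replicate number. The single transcript whose heat step differed between populations within regions became 0 to 1 without a replicate number and 3 with adjustment over all comparisons together. The single transcript among the 8 combinations became 0 with arrays centred on their median, with a further quantile normalization, with ordinary contrasts, with a replicate block and without both arrays labelled 3, and 0 to 1 without a replicate number. Between PP and SQ the 0 became 1 with a replicate block, with adjustment over all comparisons, without the fifth PP array and without the arrays that stood apart. Over all transcripts, the 2375 that differed between 25 and 35 °C became 1307 to 1908 without a replicate number. The 62 became 29 with bounds of -0.6 and 0.2, 112 with bounds of -0.4 and 0.3, and 54 to 68 without a replicate number. The cactus difference of Cpr49Ac, not past the threshold, turned from 0.03 to -0.018 with centred arrays. Replicate numbers share only a number: deviations of same-numbered arrays of different groups had a median correlation of 0.00 (others 0.01), and a replicate block kept 48 calls between the cacti and 8 between OPNM and PO. The causes were not tested.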
